A study of Rattus norvegicus with 12 samples.

Results

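The genes described here are the extracellular proteases and their inhibitors in primary astrocytes of the rat midbrain that were exposed to PT109B, a compound known here only by its code name. They are 70 of the 9721 genes in the deposited table, taken by gene symbol alone: the matrix metalloproteinases (11 Mmp genes), the tissue inhibitors of metalloproteinases (2 Timp genes), 11 Adam genes, 14 Adamts and Adamtsl genes, 13 serpins, 11 cathepsins, 2 Htra genes, 3 Prss genes, and the plasminogen activators Plau and Plat with the receptor Plaur. The cells came from wild-type newborn Sprague-Dawley rats, were grown in medium with fetal bovine serum, and gave 4 groups of 3 libraries each. These were 1.5 h, 3 h and 6 h of PT109B at a dose of 10 µM, and a control at 0 h. There were no untreated libraries at 1.5, 3 or 6 h, so PT109B and time cannot be told apart. The comparisons ask which of these transcripts differ from control at each time. Whether the controls received a vehicle is not stated, nor whether replicates were independent cultures. The p-values therefore reflect variation among libraries that could be technical.

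Matrix proteolysis outside the cell runs as a set of cascades. Plasminogen activators cut plasminogen to plasmin, plasmin helps to activate several metalloproteinases, and serpins and Timps block these steps by binding the proteases. Adam enzymes sit in the membrane and release growth factor precursors, Notch and amyloid precursor protein ectodomains, Adamts enzymes cut proteoglycans such as versican and brevican, and cathepsins work mostly in lysosomes but can be secreted. In the brain astrocytes are a source of several of these proteins, among them protease nexin 1, and microglia are rich in cathepsins.

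Levels below are CPM, read counts scaled to a common library size with TMM factors, given for replicates 1, 2 and 3 in that order. Changes are log2 fold changes ± SE from an edgeR quasi-likelihood fit to 9491 genes in all 12 libraries, and a gene is called changed when its Benjamini-Hochberg adjusted p over those genes is below 0.05. Count totals were 9368967 to 12498047 per library. In each treated group 1 library stood apart, namely replicate 3 at 1.5 h, replicate 3 at 3 h and replicate 1 at 6 h (r of 0.910 to 0.954 with the others of its group, across genes, against 0.994 to 0.995 between those others). With the controls, r over all genes scaled to library totals was 0.9757 to 0.9816 for that library at 1.5 h. It was 0.9644 to 0.9683 for that at 3 h and 0.9558 to 0.9575 for that at 6 h. For the other treated libraries it was 0.9073 to 0.9309. Among the 3 libraries standing apart r was 0.9620 to 0.9825. What set these libraries apart was not tested. Within groups, library pairs differed beyond counting noise (binomial p below 0.05) in 23.9% to 75.5% of the genes with enough counts. Pairs that held a library standing apart were at 69.8% to 75.5%, and pairs of controls at 29.8% to 46.6%. The summed level of 20 microglia markers was 3005, 3130 and 3695 CPM in controls, 400.4, 399 and 3876 at 1.5 h, 2741, 2699 and 3411 at 3 h and 3305, 2490 and 2437 at 6 h, and that of 15 mitosis genes was 1783, 1878 and 1397 CPM in controls, 1405, 1557 and 1322 at 1.5 h, 126, 112 and 1054 at 3 h and 998, 92.5 and 111 at 6 h. For 12 fibroblast and meningeal markers it was 5163, 6709 and 5072 CPM in controls, 13270, 13750 and 5205 at 1.5 h, 12450, 12250 and 5936 at 3 h and 5378, 9590 and 9240 at 6 h. Of 14 astrocyte markers 11 were in the table, with summed levels of 5821 to 11780 CPM over all libraries and Gfap at 2180 ± 458 CPM in controls. No gene of these 4 lists that was in the table was at 0 in every library. In bulk libraries fewer cells of a type and less RNA per cell cannot be told apart.

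Of the 70 genes 67 passed the filter on low counts. At 1.5 h 1 of them was called higher and none lower against control (1.49%). Of all genes tested 3.32% were called, 1.95% higher and 1.37% lower. At 3 h 15 members were called higher and 1 lower (23.9%). Of all genes 21.4% were called, 13.5% higher and 7.94% lower. At 6 h 15 members were called higher and 4 lower (28.4%). Of all genes 30.5% were called, 18.7% higher and 11.8% lower. The shares of members called in either direction lie near those of the whole table. Of the 16 members called at 3 h 15 were higher, against 1281 of 2035 genes called. At 6 h 15 of 19 were higher, against 1771 of 2891. This difference in direction was not tested. The median log2 fold change over tested members was 0.12, 0.45 and 0.42 at 1.5, 3 and 6 h, against -0.01, -0.03 and -0.02 over all genes tested. In all, 24 members were called at 1 or more times against control, and 11 of them both at 3 h and at 6 h.

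The counts were larger without the 3 libraries standing apart, which were picked from these data because they differed from their groups. Then 27 members were called higher and 24 lower at 1.5 h, out of 68 tested, beside 28.7% and 30.5% of all genes (59.2% in all). At 3 h 36 were then called higher and 11 lower, beside 31.4% and 39.6% (70.9% in all), and at 6 h 37 higher and 17 lower, beside 33.3% and 41.8% (75.1% in all). With only 1.5 h replicate 3 left out 35 members were called at 1.5 h and 32 at 6 h. Leaving out 1 control, or replicate 1 or 2 at 3 h, gave 5 to 10 calls at 3 h. Leaving out control replicate 1 or 2, or replicate 2 or 3 at 6 h, gave 11 calls at 6 h. The shares of all genes called with 1 library left out are not given here, so these counts cannot be read as particular to the members. Scaling by library size in place of TMM moved the median of all genes by -0.31 at 3 h and -0.22 at 6 h, and the calls were then 10 higher and 2 lower at 3 h and 11 higher and 6 lower at 6 h. Upper quartile scaling gave 12 higher and 6 lower at 6 h. Changes are therefore relative to the median gene of this table.

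**Figure D1:**
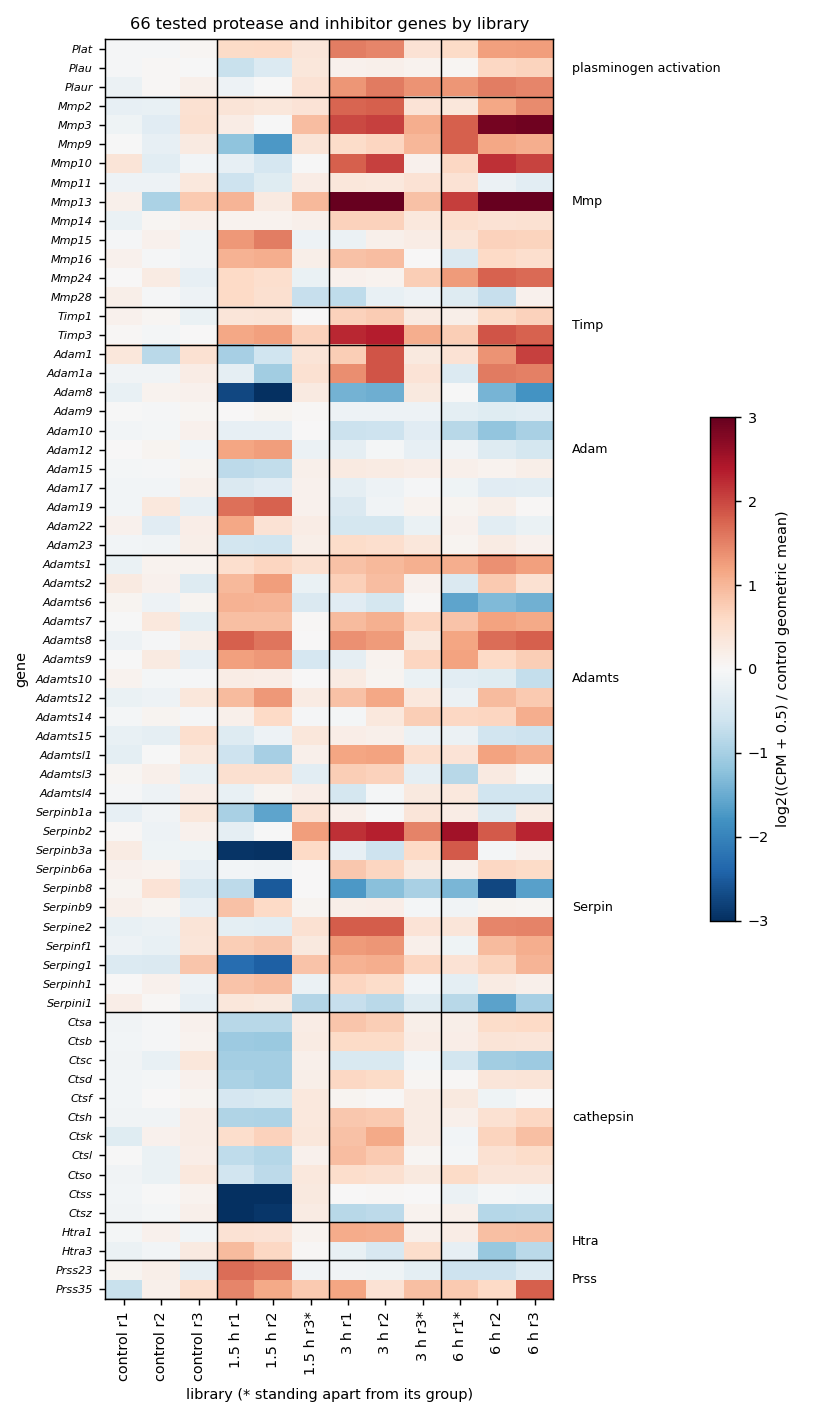
Levels of 66 tested genes in each of the 12 libraries, as log2 of CPM plus 0.5 relative to the geometric mean of the 3 controls, with colours limited at 3 in either direction and genes grouped by family. Replicates 1 and 2 at 1.5 h are blue for most cathepsins, while Mmp13, Mmp3, Serpinb2 and Plaur are red in the later groups.

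Of the 3 plasminogen activation genes Plat and Plaur rose and Plau was not called against control in edgeR on all libraries. Plaur, the receptor that holds urokinase at the cell surface, was called from 3 h on. It was at 26.4, 30.8 and 33.5 CPM in controls, 27.0, 29.9 and 40.6 at 1.5 h, 76.2, 90.2 and 77.5 at 3 h and 75.9, 87.8 and 83.5 at 6 h. The 1.5 h group overlapped the controls, and every library at 3 and 6 h lay above every control, with the libraries standing apart close to the rest. The change was 0.10 ± 0.16 at 1.5 h (edgeR adjusted p = 0.735), 1.43 ± 0.16 at 3 h (edgeR adjusted p = 0.000287) and 1.45 ± 0.16 at 6 h (edgeR adjusted p = 0.00023). Between 1.5 and 3 h the rise was itself called (log2 fold change 1.32 ± 0.16, edgeR adjusted p = 0.00173), and no library left out ended any of these 3 calls.

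The activators differed from each other. Plat, tissue plasminogen activator, was at 233, 233 and 249.8 CPM in controls, 353, 362 and 309 at 1.5 h, 689, 656 and 321 at 3 h and 356, 563 and 571 at 6 h. All treated libraries were above the controls, and the libraries standing apart were nearest to them at 3 and 6 h. Plat rose at 3 h (log2 fold change 1.22 ± 0.27, edgeR adjusted p = 0.0115) and at 6 h (log2 fold change 1.06 ± 0.27, edgeR adjusted p = 0.0143). The 3 h call was lost without control replicate 1, and the 6 h call without control replicates 1 or 2 or 6 h replicates 2 or 3. Plau, urokinase, was at 164, 171 and 167 CPM in controls, 104, 126 and 211 at 1.5 h, 184, 187 and 180.4 at 3 h and 174, 257 and 266 at 6 h. In edgeR on all libraries Plau was not called at any time against control (log2 fold changes of -0.19 ± 0.24, 0.13 ± 0.24 and 0.47 ± 0.24 at 1.5, 3 and 6 h, edgeR adjusted p = 0.666, 0.694 and 0.147). All 3 libraries at 6 h and at 3 h were nonetheless above the highest control. Without the 3 libraries standing apart it was called lower at 1.5 h and higher at 6 h.

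Of the serpins that block plasminogen activators, Serpine2 and Serpinb2 rose at 3 h. Serpine2, protease nexin 1, which also inhibits thrombin, was the most abundant inhibitor of the set per transcript length, with 518 ± 124 FPKM in controls (SD, n = 3). It was at 1284, 1323 and 1943 CPM in controls, 1225, 1192 and 2059 at 1.5 h, 5235, 5241 and 1975 at 3 h and 1922, 4131 and 4179 at 6 h. Replicates 1 and 2 at 3 h were far above controls, while the libraries standing apart at 3 and 6 h were close to control replicate 3, and at 6 h the groups overlapped. The change at 3 h was 1.45 ± 0.42 (edgeR adjusted p = 0.0351), a call lost without control replicates 1, 2 or 3, 3 h replicates 1 or 2 or 6 h replicates 2 or 3, and that at 6 h was 1.17 ± 0.42 (edgeR adjusted p = 0.0573). Serpinb2, plasminogen activator inhibitor 2, was a rare transcript at 1.63, 1.36 and 1.76 CPM in controls, 1.21, 1.57 and 4.43 at 1.5 h, 8.95, 9.90 and 5.31 at 3 h and 11.5, 6.88 and 9.60 at 6 h. Every library at 3 and 6 h was above every control. It rose at 3 h (log2 fold change 2.34 ± 0.48, edgeR adjusted p = 0.00772) and at 6 h (log2 fold change 2.55 ± 0.48, edgeR adjusted p = 0.00313), and no library left out ended either call. Serpini1, neuroserpin, an inhibitor of tissue plasminogen activator made by neurons, was at 4.45, 2.36 and 3.89 CPM at 6 h, against 9.59, 8.50 and 6.87 CPM in controls, and it fell (log2 fold change -1.22 ± 0.37, edgeR adjusted p = 0.0314). The groups did not overlap, and the call was lost without control replicates 1, 2 or 3 or 6 h replicates 2 or 3. Of 11 neuron markers 9 were in the table, none of them at 0 in every library, with summed levels of 538, 498 and 458 CPM in controls, 579.6, 551 and 485 at 1.5 h, 1457, 1316 and 517 at 3 h and 422, 1144 and 1096 at 6 h. That sum was above the controls in replicates 2 and 3 at 6 h, and 1 of the 9 (Tubb3) was called higher at 6 h and none lower. The median log2 fold change of the 9 at 6 h was -0.37. Without the 3 libraries standing apart 4 were called higher at 6 h (Nefl, Nefm, Stmn2 and Tubb3) and 4 lower (Dcx, Elavl3, Map2 and Syt1). Of all genes 33.3% and 41.8% were then called higher and lower. The part of neurons in the Serpini1 values was not tested.

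**Figure D2:**
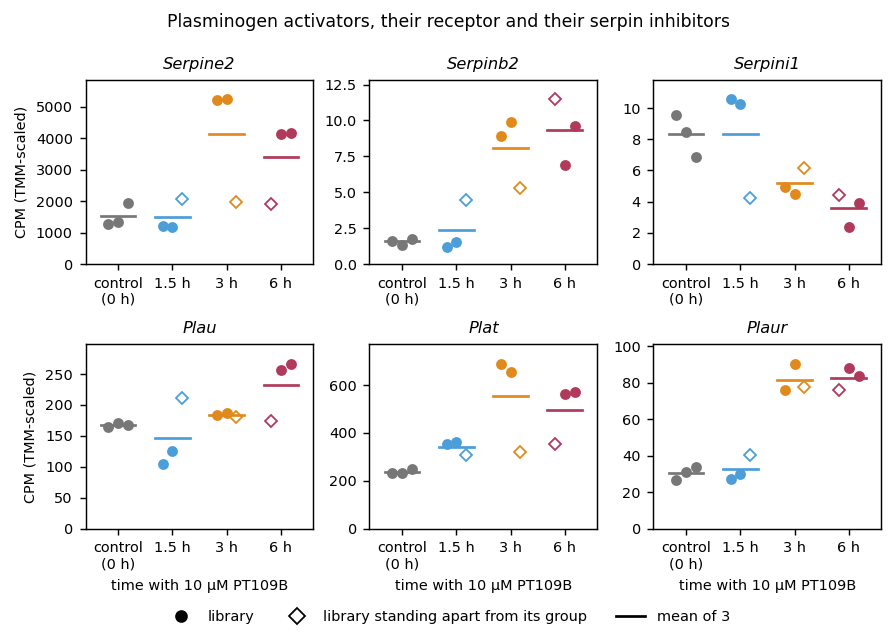
CPM of Serpine2, Serpinb2, Serpini1, Plau, Plat and Plaur in each library by time with PT109B, with 3 libraries per group. Open diamonds mark the library standing apart in each treated group and bars the group mean. All 6 libraries at 3 and 6 h lie above the controls for Plaur, Plat and Serpinb2, and the 3 libraries at 6 h lie below them for Serpini1.

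Of the 11 matrix metalloproteinases 4 rose at 3 h and 6 at 6 h in edgeR on all libraries, and none fell. Of all genes tested 13.5% were called higher at 3 h and 18.7% at 6 h. In the fit that left out the 3 libraries standing apart, 7 were called higher and none lower at 3 h, beside 31.4% and 39.6% of all genes, and 9 higher and 1 lower (Mmp11) at 6 h, beside 33.3% and 41.8%. The stromelysins Mmp3 and Mmp10 and the collagenase Mmp13 had the largest fitted changes. The 250 bases before their annotated starts are shown because all 3 hold TGANTCA, the letters searched for AP-1, within 71 bases of the start. Those of Plaur and Serpinb2 hold them farther out, and these genes were called at 3 h, 6 h or both. They come from RefSeq on build GRCr8, 5′ to 3′, with the match to TGANTCA in capitals. Mmp3 is at chr8:12925031-12925280, + strand, Mmp10 at chr8:12974457-12974706, + strand, Mmp13 at chr8:12782579-12782828, + strand, Plaur at chr1:89181113-89181362, + strand and Serpinb2 at chr13:24055771-24056020, + strand.
Mmp3: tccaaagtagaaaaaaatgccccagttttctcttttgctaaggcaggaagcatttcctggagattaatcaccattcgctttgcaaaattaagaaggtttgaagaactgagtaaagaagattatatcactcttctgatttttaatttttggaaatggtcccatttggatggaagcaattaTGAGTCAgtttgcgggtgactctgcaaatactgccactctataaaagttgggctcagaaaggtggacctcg
Mmp10: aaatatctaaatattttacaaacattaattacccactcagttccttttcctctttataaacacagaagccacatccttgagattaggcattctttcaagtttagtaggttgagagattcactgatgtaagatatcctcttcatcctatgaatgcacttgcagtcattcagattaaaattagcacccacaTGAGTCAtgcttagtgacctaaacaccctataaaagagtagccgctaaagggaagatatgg
Mmp13: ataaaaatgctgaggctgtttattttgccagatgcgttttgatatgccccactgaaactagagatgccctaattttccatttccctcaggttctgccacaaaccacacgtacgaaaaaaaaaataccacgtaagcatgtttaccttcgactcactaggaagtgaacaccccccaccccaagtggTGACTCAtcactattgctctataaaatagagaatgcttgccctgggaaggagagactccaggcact
Plaur: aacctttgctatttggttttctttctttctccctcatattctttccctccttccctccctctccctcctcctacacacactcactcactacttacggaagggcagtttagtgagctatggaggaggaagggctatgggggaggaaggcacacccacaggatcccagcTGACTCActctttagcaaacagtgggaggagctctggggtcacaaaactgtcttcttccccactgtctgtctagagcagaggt
Serpinb2: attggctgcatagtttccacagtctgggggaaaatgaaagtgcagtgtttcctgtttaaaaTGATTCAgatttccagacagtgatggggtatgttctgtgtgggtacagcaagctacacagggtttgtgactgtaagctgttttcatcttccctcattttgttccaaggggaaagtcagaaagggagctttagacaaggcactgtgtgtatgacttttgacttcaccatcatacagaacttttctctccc

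The match began 71 bases before the start in Mmp3, 61 in Mmp10, 66 in Mmp13, 83 in Plaur and 189 in Serpinb2. It read TGATTCA in Serpinb2 and TGAGTCA or TGACTCA in the others. The N takes any base, so the search also counts matches with A or T there. AP-1 is the dimer of Fos and Jun proteins. Of 54 members with a RefSeq promoter of 300 bases (250 before the start and 50 from it on), 6 held TGANTCA, which reads the same on both strands (11.1%, against 7.33% of all 33469 such promoters). The other was that of Adam19. No promoter was found by symbol for Mmp2, Mmp9, Mmp14, Mmp16, Plat, Adam9 and Adamts8, among others, so these were not searched. The promoters of Mmp11, Mmp15, Mmp24 and Mmp28 were searched and held no TGANTCA. The EGR1 letters GCGNGGGCG, searched on both strands, stood in 6 member promoters (11.1%, against 4.98%), those of Adamts14, Ctsl, Htra3, Mmp11, Mmp24 and Serpine2. The cAMP response element TGACGTCA, also a palindrome, was found in none of the 54 (1.83% of all), and it shares no full match with the AP-1 letters. A match of letters is a description of these windows and not a binding site.

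Mmp3, stromelysin 1, which cuts many matrix proteins and activates other Mmps, was at 11.0, 9.36 and 16.9 CPM in controls, 14.2, 11.9 and 23.4 at 1.5 h, 49.1, 51.5 and 26.2 at 3 h and 42.7, 91.5 and 94.1 at 6 h. All libraries at 3 and 6 h were above the controls, and within each of those groups the library standing apart was the lowest. It rose at 3 h (log2 fold change 1.76 ± 0.40, edgeR adjusted p = 0.0124) and at 6 h (log2 fold change 2.61 ± 0.41, edgeR adjusted p = 0.00116). The 3 h call was lost without control replicates 1 or 2 or 3 h replicate 2, and the 6 h call was kept whichever library was left out. Mmp13, collagenase 3, was at 2.74, 1.000 and 4.49 CPM in controls, 5.33, 2.98 and 5.13 at 1.5 h, 49.8, 55.5 and 4.86 at 3 h and 11.6, 64.7 and 68.7 at 6 h. The libraries at 3 h and at 6 h did not overlap the controls, but replicate 3 at 3 h lay just above the highest control. Its changes were 3.75 ± 0.95 at 3 h (edgeR adjusted p = 0.0218) and 4.15 ± 0.96 at 6 h (edgeR adjusted p = 0.00965), and 4.25 ± 0.36 and 4.56 ± 0.35 without the 3 libraries standing apart. The 3 h call was lost without control replicates 1 or 2 or 3 h replicates 1 or 2.

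Mmp10, stromelysin 2, was near the floor of detection, with 5, 1 and 2 reads counted in controls. Its levels were 0.428, 0.0714 and 0.176 CPM in controls, 0.101, 0 and 0.201 at 1.5 h, 1.97, 2.42 and 0.275 at 3 h and 0.599, 2.77 and 2.40 at 6 h. The 6 h group lay above the controls and the 3 h group overlapped them. It was called at 6 h (log2 fold change 3.05 ± 0.99, edgeR adjusted p = 0.0396), a call lost without control replicates 1, 2 or 3, 1.5 h replicate 1, 3 h replicates 1 or 2 or 6 h replicates 2 or 3, and not at 3 h (edgeR adjusted p = 0.0707). Mmp3 and Mmp10 are close relatives, and how the counting treated reads they share is not given in the sources used here.

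The gelatinases were called at different times. Mmp9, gelatinase B, was at 51.2, 43.4 and 62.9 CPM in controls, 22.1, 15.4 and 68.2 at 1.5 h, 75.9, 81.1 and 103 at 3 h and 183, 116 and 110.5 at 6 h. Replicates 1 and 2 at 1.5 h were the lowest of all libraries, and at 6 h all 3 were above the controls with the library standing apart the highest. It rose at 6 h (log2 fold change 1.38 ± 0.46, edgeR adjusted p = 0.0456), a call lost without control replicates 1, 2 or 3, 3 h replicates 1, 2 or 3 or 6 h replicates 1, 2 or 3. Without the 3 libraries standing apart Mmp9 was called lower at 1.5 h (-1.50 ± 0.18, edgeR adjusted p = 2.58e-05), where the 20 microglia markers were lower too (all 20 called), and the part of those cells in the Mmp9 values was not tested. Mmp2, gelatinase A, was at 108, 110 and 175 CPM in controls, 168, 161 and 169.8 at 1.5 h, 433, 446 and 171 at 3 h and 162, 287 and 344 at 6 h. The libraries standing apart at 3 and 6 h were within or beside the control range, and the others were above it. Mmp2 rose at 3 h (log2 fold change 1.42 ± 0.37, edgeR adjusted p = 0.0243) and was not called at 6 h (1.01 ± 0.37, edgeR adjusted p = 0.0592). The 3 h call was lost without control replicates 1 or 2 or 3 h replicates 1 or 2.

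Of the membrane-type metalloproteinases, Mmp14, which activates the Mmp2 proenzyme at the cell surface, was at 261, 313 and 326 CPM in controls, 321, 324 and 330.1 at 1.5 h, 485, 484 and 369 at 3 h and 426, 406 and 408 at 6 h. All libraries at 3 and 6 h were above the controls. Its changes were small at 3 h (log2 fold change 0.57 ± 0.14, edgeR adjusted p = 0.0154) and at 6 h (log2 fold change 0.46 ± 0.14, edgeR adjusted p = 0.0255). Those calls were lost without control replicate 1 or 3 h replicates 1 or 2 at 3 h and without control replicates 1 or 2, 3 h replicate 2 or 6 h replicates 2 or 3 at 6 h. Mmp24, a membrane-type enzyme known from the nervous system, was at 17.2, 20.4 and 14.4 CPM in controls, 26.2, 24.7 and 14.9 at 1.5 h, 18.9, 18.5 and 28.8 at 3 h and 42.5, 59.8 and 56.9 at 6 h. Against control it was called at 6 h only, with all 3 libraries above every other library of the series (log2 fold change 1.61 ± 0.26, edgeR adjusted p = 0.00139), and this call was kept whichever library was left out.

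Mmp11, Mmp15, Mmp16 and Mmp28 were not called against control at any time in edgeR on all libraries. Mmp15 and Mmp16, both membrane-type enzymes, were higher in replicates 1 and 2 at 1.5 h than in any other library. Mmp15 was at 79.6, 92.5 and 28.5 CPM at 1.5 h, against 30.9, 34.9 and 29.8 CPM in controls, and Mmp16 at 85.3, 87.2 and 46.5 CPM at 1.5 h, against 44.8, 39.9 and 38.1 CPM in controls. In both genes the third library at 1.5 h was near the controls, as were the fibroblast and meningeal markers of that library (5205 CPM in sum, against 13270 and 13750 CPM in replicates 1 and 2). Mmp11, stromelysin 3, averaged 49.6 ± 14.9 CPM at 6 h and 49.6 ± 9.90 CPM in controls (SD, n = 3 each).

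Both Timp genes in the table rose. Timp3, a matrix-bound inhibitor that also blocks several Adam and Adamts enzymes, was at 35.4, 33.2 and 34.7 CPM in controls, 77.1, 81.1 and 56.1 at 1.5 h, 168, 177 and 73.5 at 3 h and 57.7, 129 and 119 at 6 h. All 9 treated libraries were above all controls, which differed little among themselves, and in each treated group the library standing apart was the lowest. It rose at 3 h (log2 fold change 2.02 ± 0.36, edgeR adjusted p = 0.00389) and at 6 h (log2 fold change 1.57 ± 0.35, edgeR adjusted p = 0.00832), and at 1.5 h the change was 1.05 ± 0.35 (edgeR adjusted p = 0.133). Timp1, the soluble inhibitor, was at 168, 160 and 132 CPM in controls, 198, 200.3 and 154 at 1.5 h, 248, 257 and 185 at 3 h and 172, 227 and 245 at 6 h. It was called at 3 h (log2 fold change 0.58 ± 0.18, edgeR adjusted p = 0.0438), a call lost without control replicates 1, 2 or 3, 1.5 h replicates 1 or 2, 3 h replicates 1 or 2 or 6 h replicate 2, and not at 6 h (0.48 ± 0.18, edgeR adjusted p = 0.0643), although both groups lay above the controls. The summed level of the fibroblast and meningeal markers was likewise higher in replicates 1 and 2 at 3 h and replicates 2 and 3 at 6 h than in controls. With the 3 libraries standing apart left out, 7 of those 12 markers were called higher and 4 lower at 3 h (Col1a1, Col6a1, Col6a2 and Pdgfra), and 4 higher and the same 4 lower at 6 h. Their part in the Mmp and Timp values was not tested.

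**Figure D3:**
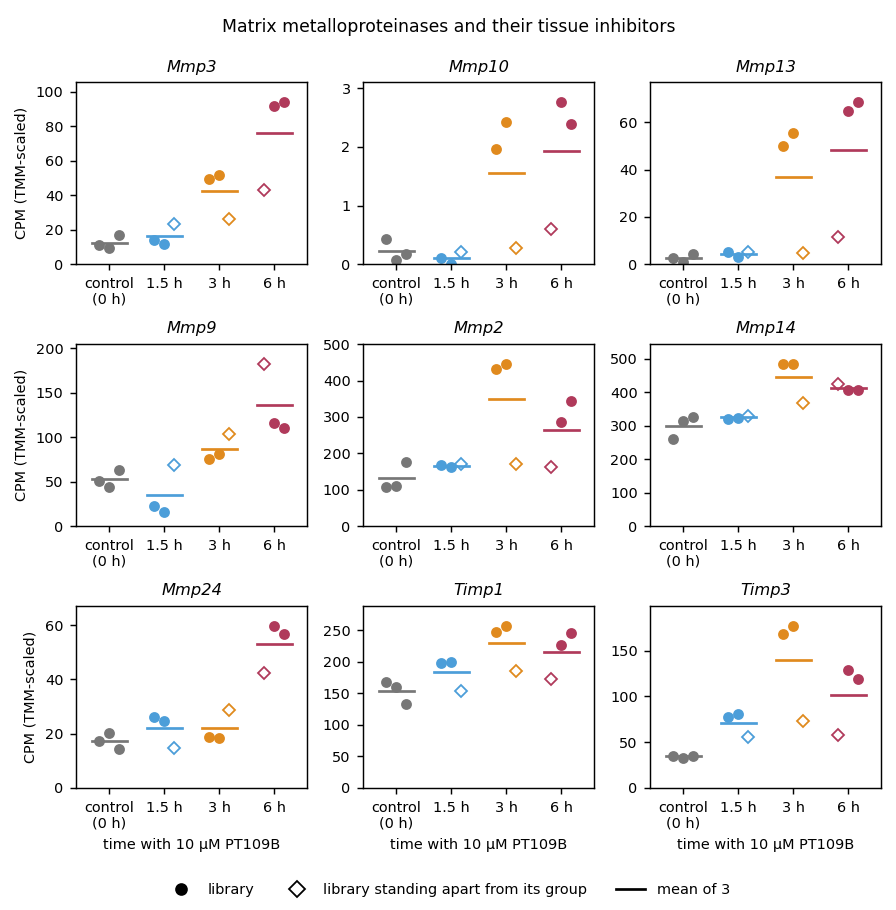
CPM of 7 Mmp and 2 Timp genes in each library by time with PT109B, with 3 libraries per group, on a linear axis from 0. In Mmp3, Mmp13, Mmp2 and Timp3 the open diamonds of the libraries standing apart at 3 and 6 h lie below the other 2 libraries, and in Mmp9 they lie above them.

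Of the 11 Adam genes none rose against control in edgeR on all libraries, 1 fell at 3 h and 2 fell at 6 h. Of all genes tested 7.94% were called lower at 3 h and 11.8% at 6 h. DESeq2 called Adam12 and Adam19 higher at 1.5 h. With only the 2 groups compared edgeR called Adam1a and Adam23 higher at 3 h, where all libraries of both genes lay above the controls. Leaving out the 3 libraries standing apart, edgeR called 3 higher and 6 lower at 1.5 h, 4 and 5 at 3 h, and 2 and 5 at 6 h, beside 59.2%, 70.9% and 75.1% of all genes in either direction. Adam10, the main alpha-secretase of amyloid precursor protein and a sheddase of Notch, was at 198, 199.9 and 227 CPM in controls, 175, 176 and 209.9 at 1.5 h, 134, 134 and 164 at 3 h and 116, 91.4 and 106 at 6 h. The 3 h and 6 h groups lay below all controls, and the 6 h group below the 3 h group. It fell at 3 h (log2 fold change -0.54 ± 0.13, edgeR adjusted p = 0.0197) and at 6 h (log2 fold change -0.99 ± 0.13, edgeR adjusted p = 0.000557), with a difference between 6 h and 3 h that was not called (log2 fold change -0.46 ± 0.13, edgeR adjusted p = 0.0852). The 3 h call was lost without control replicates 1, 2 or 3 or 3 h replicates 1 or 2, and the 6 h call was kept whichever library was left out. Adam9, a relative that also sheds membrane proteins, was at 162, 159 and 169 CPM in controls, 165, 172 and 168 at 1.5 h, 147, 146 and 147 at 3 h and 133, 127 and 130.2 at 6 h. Its fall at 6 h was small and even over the 3 libraries (log2 fold change -0.33 ± 0.08, edgeR adjusted p = 0.0122), and the call was lost without control replicate 3. Adam17, which releases tumour necrosis factor and EGF receptor ligands, was at 156, 156 and 185 CPM in controls, 122, 132 and 181 at 1.5 h, 136, 148 and 160.3 at 3 h and 151, 130.2 and 133 at 6 h. In edgeR on all libraries Adam17 was not called at 1.5, 3 or 6 h (edgeR adjusted p = 0.469, 0.443 and 0.201). Adam15 had mean levels of 374 ± 10.3 CPM at 6 h and 339.7 ± 19.0 CPM in controls.

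Adam12 and Adam19, the meltrins, were high in 2 libraries at 1.5 h alone. Adam12 was at 355, 372 and 137 CPM at 1.5 h, against 155, 163 and 146 CPM in controls, and Adam19 at 142, 154 and 49.0 CPM at 1.5 h, against 42.6, 56.3 and 37.7 CPM in controls. Replicate 3 at 1.5 h was near the controls in both. Neither was called against control at 1.5 h (edgeR adjusted p = 0.13 and 0.0707), and both were called without the 3 libraries standing apart (1.23 ± 0.08 and 1.70 ± 0.14, edgeR adjusted p = 2.88e-09 and 1.3e-06). Adam8, a protease of white blood cells and microglia, was at 9.16, 11.7 and 11.8 CPM in controls, 1.21, 0.627 and 13.2 at 1.5 h, 3.74, 3.63 and 13.5 at 3 h and 10.7, 3.80 and 2.74 at 6 h. It was lowest in the same 2 libraries at 1.5 h, low in replicates 1 and 2 at 3 h and 2 and 3 at 6 h, and not called in the fit to all libraries (edgeR adjusted p = 0.514, 0.641 and 0.488 at the 3 times). The part of microglia in these values was not tested. Adam1a and Adam1 carry related names, and how any reads they share were counted is not given in the sources used.

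The Adamts genes encode secreted proteases that cut proteoglycans and procollagens, and the Adamtsl genes encode related proteins without a protease domain. Of 13 tested members of this family, among them Adamtsl1, Adamtsl3 and Adamtsl4, 2 rose at 3 h (15.4%). At 6 h 4 rose and 1 fell (38.5%), and all these calls were of Adamts genes. Of all genes tested 13.5% were called higher and 7.94% lower at 3 h, and 18.7% and 11.8% at 6 h. With the libraries standing apart left out 8 of the 13 were called higher and 1 lower at 1.5 h, 7 and 1 at 3 h, and 8 and 4 at 6 h, beside 59.2%, 70.9% and 75.1% of all genes in either direction. Those counts include Adamtsl1 (lower at 1.5 h, higher at 3 and 6 h), Adamtsl3 (higher at 1.5 and 3 h) and Adamtsl4 (lower at 6 h). Adamts1, a versican- and aggrecan-cutting enzyme, was the most abundant of them, with 125 ± 4.85 FPKM at 6 h and 61.2 ± 7.34 FPKM in controls (SD, n = 3 each). It was at 341, 423 and 425 CPM in controls, 559, 617 and 554 at 1.5 h, 724, 768 and 828 at 3 h and 839, 1018 and 928 at 6 h. All treated libraries were above the controls and the libraries of a group were close together. It rose at 3 h (log2 fold change 0.96 ± 0.14, edgeR adjusted p = 0.00107) and at 6 h (log2 fold change 1.23 ± 0.14, edgeR adjusted p = 0.00023), and at 1.5 h the change was 0.54 ± 0.14 (edgeR adjusted p = 0.0632). Adamts7, known to cut cartilage oligomeric matrix protein, was at 39.7, 49.8 and 32.8 CPM in controls, 75.4, 75.4 and 41.0 at 1.5 h, 77.7, 84.1 and 63.3 at 3 h and 72.7, 93.2 and 88.8 at 6 h. All libraries at 3 and 6 h were above the controls. It rose at 3 h (log2 fold change 0.88 ± 0.24, edgeR adjusted p = 0.0277) and at 6 h (log2 fold change 1.06 ± 0.24, edgeR adjusted p = 0.00835), and the 3 h call was lost without control replicates 1 or 3 or 3 h replicates 1 or 2.

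Adamts8 was at 6.76, 7.43 and 8.62 CPM in controls, 27.5, 24.1 and 7.65 at 1.5 h, 20.4, 18.9 and 9.34 at 3 h and 17.7, 25.4 and 27.7 at 6 h. Every treated library at 3 and 6 h was above the controls, while 1.5 h replicate 3 was within their range. It was called at 6 h (log2 fold change 1.63 ± 0.44, edgeR adjusted p = 0.0182), a call lost without control replicates 1 or 2 or 6 h replicates 2 or 3. Adamts14, a procollagen N-proteinase, was at 13.0, 13.1 and 18.1 CPM at 6 h, against 7.88, 8.78 and 8.10 CPM in controls. It rose (log2 fold change 0.83 ± 0.26, edgeR adjusted p = 0.0331), a call lost without control replicates 1, 2 or 3, 3 h replicate 2 or 6 h replicates 2 or 3. Adamts6 was at 9.67, 8.14 and 9.77 CPM in controls, 19.4, 19.1 and 6.64 at 1.5 h, 7.08, 6.16 and 9.34 at 3 h and 2.74, 3.39 and 3.09 at 6 h. It fell at 6 h, with the 3 libraries close together and far below the controls (log2 fold change -1.58 ± 0.37, edgeR adjusted p = 0.00996), after higher values in 2 of the 3 libraries at 1.5 h, where it was not called (edgeR adjusted p = 0.273). Adamts9, another versican-cutting enzyme, was at 27.2, 33.1 and 23.1 CPM in controls, 65.0, 68.5 and 19.1 at 1.5 h, 22.6, 29.7 and 43.1 at 3 h and 63.7, 41.6 and 46.4 at 6 h. In edgeR on all libraries Adamts9 was not called at any time (edgeR adjusted p = 0.254, 0.748 and 0.133). Adamtsl3, an Adamts-like protein without a protease domain, had the highest CPM of the uncalled Adamts and Adamtsl genes and averaged 352 ± 122 CPM at 3 h and 258 ± 33.8 CPM in controls.

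**Figure D4:**
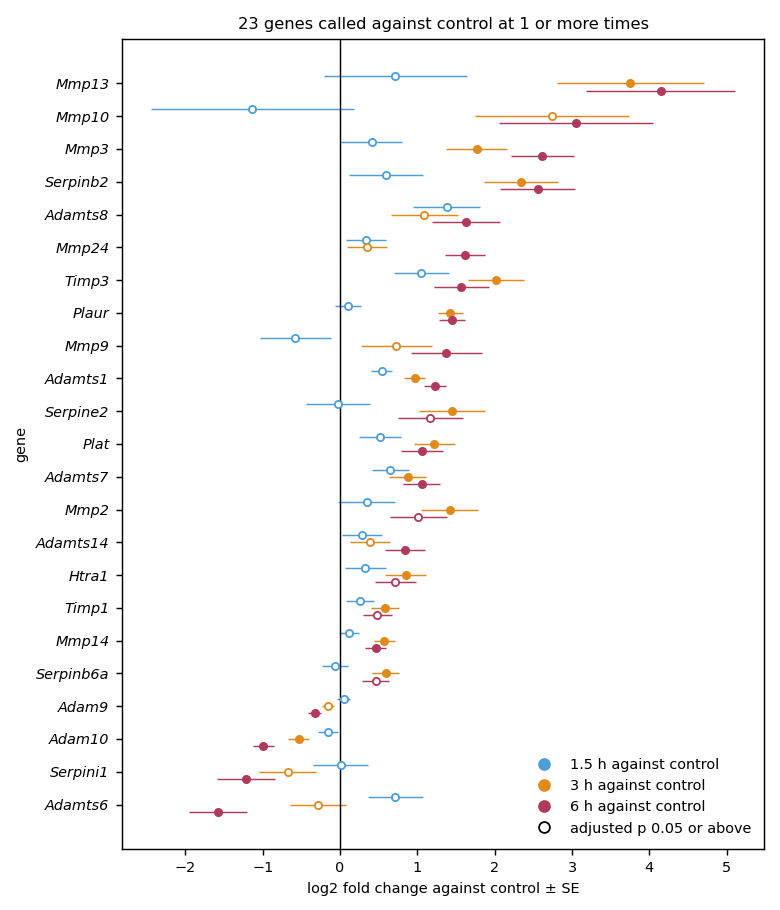
Log2 fold changes against control, with SE bars, at 1.5, 3 and 6 h for 23 genes called at 1 or more times. Filled points have an adjusted p below 0.05. No point at 1.5 h is filled, and Adam10, Adam9, Adamts6 and Serpini1 are the genes with filled points below 0.

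Among the serpins not acting on plasminogen activators, Serpinb6a, an intracellular inhibitor whose reads may be shared with the near copy Serpinb6b, was at 123, 109 and 84.3 CPM at 3 h, against 76.3, 75.4 and 58.6 CPM in controls. The groups did not overlap. It was called at 3 h (log2 fold change 0.59 ± 0.17, edgeR adjusted p = 0.0349), a call lost without control replicates 1, 2 or 3, 3 h replicates 1 or 2 or 6 h replicate 3. Serpinh1, the collagen chaperone Hsp47, was at 480.5, 522 and 429 CPM in controls, 862, 902 and 422 at 1.5 h, 742, 698 and 447 at 3 h and 386, 560.1 and 528 at 6 h. It was high in replicates 1 and 2 at 1.5 h and 3 h and was not called at those times in edgeR on all libraries (edgeR adjusted p = 0.253 and 0.325). Serpinf1, pigment epithelium-derived factor, was at 43.5, 41.4 and 61.6 CPM in controls, 80.1, 84.0 and 58.9 at 1.5 h, 117, 120.5 and 53.0 at 3 h and 44.1, 93.1 and 103 at 6 h, with the libraries standing apart near the controls in each treated group. Serping1, the C1 inhibitor of the complement system, was at 115, 112 and 271 CPM in controls, 30.6, 27.5 and 274 at 1.5 h, 314, 325 and 239 at 3 h and 205, 239 and 306 at 6 h. The controls themselves differed, with replicate 3 above the other controls, and replicates 1 and 2 at 1.5 h were the lowest of the series. In edgeR on all libraries neither Serpinf1 nor Serping1 was called against control at any time (lowest edgeR adjusted p of 0.074 for Serpinf1 and 0.44 for Serping1). DESeq2 called Serpinf1 higher at 3 h. Without the 3 libraries standing apart Serpinf1 was called higher at 1.5, 3 and 6 h and Serpinh1 at 1.5 and 3 h. Serping1 was then called lower at 1.5 h. Of all genes 59.2%, 70.9% and 75.1% were called in that fit at 1.5, 3 and 6 h.

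The cathepsins were the most abundant proteases per transcript length. In controls Ctsd, the aspartic lysosomal protease, had 1036 ± 83.1 FPKM, Ctsb 639.8 ± 42.6 FPKM and Ctsl 334 ± 42.8 FPKM, and Serpine2 stood between Ctsl and Ctsb (SD, n = 3). Ctsb and Ctsl are lysosomal cysteine proteases. None of the 11 cathepsins was called against control at any time in the edgeR fit by group to all 12 libraries. In it 0, 1 and 1 of them had an unadjusted p below 0.05 at 1.5, 3 and 6 h. Of all genes tested edgeR called 3.32%, 21.4% and 30.5% at these times. DESeq2 called 0, 1 (Ctsk, higher) and 1 (Ctsc, lower) of the 9 with an adjusted p. Limma on log2 FPKM with either pseudocount called 0, 0 and 1 (Ctsc, lower) of 11. With the replicate number as a block, or only the 2 groups compared, edgeR also called Ctsc lower at 6 h. Shares of all genes in those fits are not given here. Ctsc was at 214, 154 and 147 CPM at 6 h, against 293.5, 268 and 397 CPM in controls. Ctss, a cysteine protease that microglia secrete, was at 490.5, 512 and 561 CPM in controls, 37.8, 34.3 and 635 at 1.5 h, 524, 533 and 525 at 3 h and 462, 500.2 and 493 at 6 h. Replicates 1 and 2 at 1.5 h were far below every other library and replicate 3 was above the controls. Ctsd was at 2616, 2683 and 3052 CPM in controls, 1448, 1367 and 3139 at 1.5 h, 4287, 4130 and 2903 at 3 h and 2830, 3601 and 3651 at 6 h, and Ctsb at 1495, 1540 and 1706 CPM in controls, 735, 726 and 1861 at 1.5 h, 2355, 2338 and 1846 at 3 h and 1812, 2055 and 2041 at 6 h. In both the same 2 libraries were the lowest, and replicates 1 and 2 at 3 h were the highest.

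Without the 3 libraries standing apart 10 of 11 cathepsins were called lower at 1.5 h and 1 higher, beside 59.2% of all genes called there. The changes were -3.86 ± 0.09 for Ctss, -1.12 ± 0.09 for Ctsb, -0.99 ± 0.09 for Ctsd and -0.82 ± 0.10 for Ctsl (edgeR adjusted p = 1.24e-13, 2.58e-08, 3.28e-07 and 8.06e-06). At 3 h 7 were then called higher and 2 lower, and at 6 h 6 higher and 2 lower, beside 70.9% and 75.1% of all genes. Microglia markers moved with the cathepsins at 1.5 h, at 400.4 and 399 CPM in replicates 1 and 2 and 3876 CPM in replicate 3, against 3005 to 3695 CPM in controls. Ctsz is itself 1 of those 20 markers. At 3 h replicates 1 and 2 had microglia markers somewhat below the controls (2741 and 2699 CPM), while Ctsd, Ctsb and Ctsl were above them. The part of microglia in the cathepsin values was not tested.

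**Figure D5:**
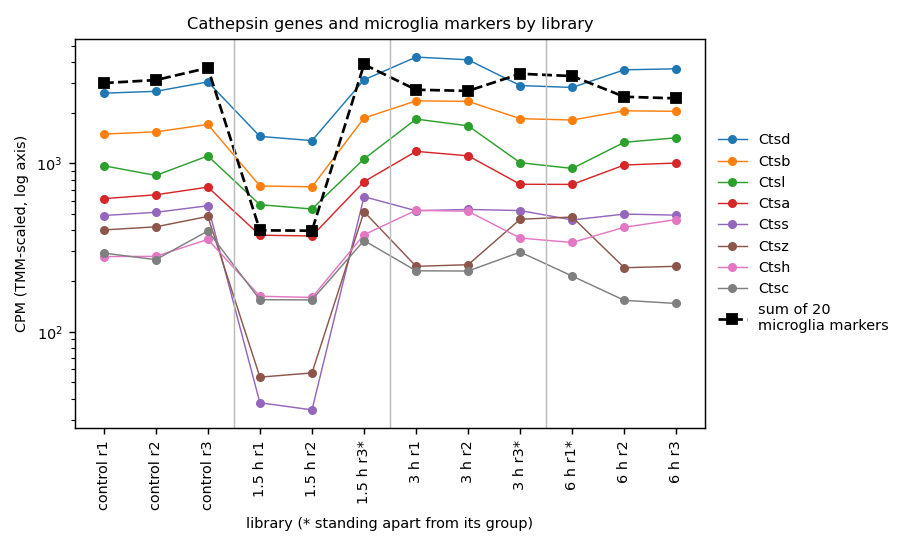
CPM of 8 cathepsin genes and the summed CPM of 20 microglia markers in each library, on a log axis, from controls to 6 h. The marker sum and all 8 cathepsins dip together in replicates 1 and 2 at 1.5 h, and at 3 h replicates 1 and 2 have more Ctsd, Ctsb, Ctsl, Ctsa and Ctsh than the controls while the marker sum is below them.

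Of the remaining serine proteases Htra1, a secreted enzyme that cuts matrix proteins and binds TGF-beta family members, was at 336, 385 and 334 CPM in controls, 477, 469 and 379 at 1.5 h, 762, 750.5 and 388 at 3 h and 409, 653 and 668 at 6 h. Both groups at 3 and 6 h lay above the controls. It was called at 3 h (log2 fold change 0.85 ± 0.26, edgeR adjusted p = 0.0432), a call lost without control replicates 1, 2 or 3, 1.5 h replicates 1 or 2, 3 h replicates 1 or 2 or 6 h replicates 2 or 3, and not at 6 h (0.71 ± 0.26, edgeR adjusted p = 0.0611). Prss23 was at 65.6, 70.5 and 51.6 CPM in controls, 198, 187 and 57.9 at 1.5 h, 57.3, 57.1 and 50.7 at 3 h and 39.9, 40.3 and 46.6 at 6 h. It was high in replicates 1 and 2 at 1.5 h and near or below the controls in every other treated library. In edgeR on all libraries it was not called against control (edgeR adjusted p = 0.0908 at 1.5 h, 0.714 at 3 h and 0.236 at 6 h), while DESeq2 called it higher at 1.5 h. Prss35 and Htra3 were rare, with means of 2.48 ± 1.42 CPM at 6 h and 0.917 ± 0.538 CPM in controls for Prss35 and 7.16 ± 2.42 CPM at 6 h and 11.9 ± 2.13 CPM in controls for Htra3, and neither was called by edgeR in the fit to all libraries. DESeq2 called Prss35 higher at 6 h. After the 3 libraries standing apart were left out, edgeR called Prss35 higher at 6 h (1.51 ± 0.55, edgeR adjusted p = 0.0211) and Htra3 lower (-1.12 ± 0.22, edgeR adjusted p = 0.0003), and both higher at 1.5 h. Prss16, Adamtsl2 and Serpinb6b did not pass the filter, with no library above 9 counts for Prss16, 11 for Adamtsl2 and 20 for Serpinb6b.

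Between times, 13 members were higher and 4 lower at 3 h than at 1.5 h (25.4%). Of all genes 20.3% were called, 12.1% higher and 8.23% lower. With the replicate number as a block, 6 members were higher and 3 lower, beside 8.39% and 4.71% of all genes (13.1% in all). By library size alone 7 were higher and 9 lower, with the median of all genes moved by -0.23, by upper quartile scaling 11 and 7, and by depth from counts and FPKM 9 and 9. Without the 3 libraries standing apart 37 were higher and 17 lower, beside 35.2% and 34.7% of all genes (69.9% in all). Besides Plaur, the genes higher at 3 h included the cathepsins Ctsa, Ctsh and Ctsl (1.00 ± 0.29, 1.01 ± 0.31 and 1.06 ± 0.31, edgeR adjusted p = 0.0381, 0.0455 and 0.038, and 0.0517, 0.0491 and 0.0552 with the block). Adam23, a catalytically inactive member with brain functions, and the Adamts-like Adamtsl1 were also higher at 3 h (0.75 ± 0.19 and 1.43 ± 0.33, edgeR adjusted p = 0.026 and 0.019), and so was Serpinb2 (1.75 ± 0.47, edgeR adjusted p = 0.0292). Serpine2 was higher too (log2 fold change 1.48 ± 0.43, edgeR adjusted p = 0.0366, and 0.0569 with the block). Mmp3, Mmp10, Mmp13 and Mmp14 were called with edgeR adjusted p of 0.0364, 0.0385, 0.0421 and 0.0388, and with the block these were 0.0502, 0.0733, 0.0747 and 0.0665. The genes lower at 3 h than at 1.5 h were Adam12, Adam19, Adam22 and Prss23, the last at 57.3, 57.1 and 50.7 CPM at 3 h, against 198, 187 and 57.9 CPM at 1.5 h (log2 fold change -1.43 ± 0.36, edgeR adjusted p = 0.024). For Adam22, a catalytically inactive member that binds Lgi1, the edgeR adjusted p was 0.038, and 0.0545 with the block. Of the 17 calls, 16 were lost when any 1 of replicates 1 and 2 at 1.5 h and replicates 1 and 2 at 3 h was left out, and that of Plaur was not.

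From 3 to 6 h 1 member was called (1.49%). Of all genes 4.05% were called, 2.33% higher and 1.72% lower. Without the 3 libraries standing apart 8 members were higher and 20 lower, beside 15.4% and 18.7% of all genes (34.1% in all). The called member was Mmp24, at 42.5, 59.8 and 56.9 CPM at 6 h, against 18.9, 18.5 and 28.8 CPM at 3 h (log2 fold change 1.27 ± 0.26, edgeR adjusted p = 0.026). The groups did not overlap, and the call was lost without 3 h replicates 1 or 2 or 6 h replicates 2 or 3. Of the 54 calls in the 5 comparisons, 17 were kept in every alternative processing and with any 1 library left out. Among them were Plaur, Serpinb2, Timp3 and Adamts1 at 3 h, Plaur, Serpinb2, Timp3, Adamts1, Adamts7, Mmp3, Mmp13, Mmp24, Adam10 and Adamts6 at 6 h, and Plaur at 3 h against 1.5 h. No call changed its direction in any of them.

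Other genes of extracellular proteolysis, taken from a list of 64 of which 44 were tested, gave 1 call higher at 1.5 h, 10 higher at 3 h, and 9 higher and 1 lower at 6 h, with median log2 fold changes of 0.02, 0.56 and 0.43. Of all genes tested 3.32%, 21.4% and 30.5% were called at these times. When the 3 libraries standing apart were left out, 13 of the 44 were called higher and 16 lower at 1.5 h, 26 and 8 at 3 h, and 24 and 11 at 6 h, beside 59.2%, 70.9% and 75.1% of all genes. F3, tissue factor, which starts blood clotting, rose at 1.5, 3 and 6 h (1.62 ± 0.16, 1.34 ± 0.16 and 0.80 ± 0.16, edgeR adjusted p = 0.000316, 0.000385 and 0.00408), with its highest mean at 1.5 h. Tfpi2, a Kunitz-type inhibitor of plasmin and of tissue factor complexes, averaged 12.5 ± 1.39 CPM at 6 h and 0.981 ± 0.320 CPM in controls (log2 fold change 3.65 ± 0.30, edgeR adjusted p = 4.58e-05). F2rl1, the protease-activated receptor cut by trypsin-like proteases, averaged 32.4 ± 19.2 CPM at 3 h and 7.92 ± 1.93 CPM in controls (log2 fold change 2.03 ± 0.43, edgeR adjusted p = 0.00978). Reck, a membrane-anchored inhibitor of Mmps, rose at 6 h (log2 fold change 0.96 ± 0.17, edgeR adjusted p = 0.00193).

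In a list of 23 tested ligands and receptors that Adam enzymes shed, 2, 11 and 12 members rose at 1.5, 3 and 6 h, and 0, 0 and 1 fell, with median log2 fold changes of 0.25, 0.66 and 0.70. Of all genes tested 1.95%, 13.5% and 18.7% were called higher. In the fit to the 9 libraries that did not stand apart, 15 were called higher and 6 lower at 1.5 h, 17 and 1 at 3 h, and 15 and 5 at 6 h, beside 28.7%, 31.4% and 33.3% of all genes higher and 30.5%, 39.6% and 41.8% lower. Hbegf, an EGF receptor ligand released by Adam17 and others, averaged 1094 ± 43.8 CPM at 3 h and 110.3 ± 13.9 CPM in controls (SD, n = 3 each) and rose (log2 fold change 3.31 ± 0.15, edgeR adjusted p = 1.55e-06). Ereg, another ligand of that receptor, rose at 1.5, 3 and 6 h (2.45 ± 0.54, 3.82 ± 0.57 and 2.87 ± 0.55, edgeR adjusted p = 0.0396, 0.00153 and 0.00371), with the 1.5 h call lost without control replicates 1, 2 or 3, 1.5 h replicates 1 or 2, 3 h replicate 1 or 6 h replicate 3. Tgfa averaged 96.0 ± 32.3 CPM at 6 h and 21.4 ± 3.19 CPM in controls (log2 fold change 2.16 ± 0.44, edgeR adjusted p = 0.00503), and Areg rose at 3 h (log2 fold change 3.20 ± 0.58, edgeR adjusted p = 0.00451). Of 11 tested proteoglycan substrates and partners of Adamts enzymes, Bcan, brevican, rose at 1.5 h (log2 fold change 1.14 ± 0.25, edgeR adjusted p = 0.0323) and Tnc, tenascin C, at 3 and 6 h (0.56 ± 0.16 and 0.58 ± 0.16, edgeR adjusted p = 0.0312 and 0.0195). The Bcan call was lost without control replicates 1, 2 or 3 or 1.5 h replicates 1 or 2. These were the only calls of that list against control in edgeR on all libraries, 1 at each time, beside 3.32%, 21.4% and 30.5% of all genes. In those 9 libraries 11 of 12 then tested were called higher and none lower at 1.5 h, 7 and 3 at 3 h, and 4 and 1 at 6 h, beside the shares of all genes given for the list before.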

How the data were processed

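RNA was sequenced from 12 libraries of primary rat midbrain astrocytes, 3 in each of 4 groups taken from the labels. Per the labels' protocols, TRIzol was used for RNA extraction and an NEBNext Ultra kit for library preparation. Per the file headers, the table that the authors deposited gives FPKM and a count, taken here as an expected count, for every gene in every library. The submitters' processing notes name StringTie 2.2.1. What that tool did is not given in the sources used, nor are aligner, build or annotation. Fractions made up 9.49% of the counts (1343 genes, 7 of them members), so counts were taken as estimates and rounded. The choice of tests had assumed whole numbers. Deposited FPKM values served for levels compared between genes and for alternative tests. Adjusted p-values refer to the genes of this table.

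In R 4.3.3, edgeR 4.0.16 fitted the 12 libraries together on group (filterByExpr, which removed 230 genes, TMM, robust quasi-likelihood test, prior count 0.125). The SE is the absolute log2 fold change over the square root of F. The scripts were tested on simulated counts. Alternatives were other scalings, filters, groups fitted alone, a replicate block, non-robust fits, DESeq2 1.42.0, limma 3.58.1 on log2 FPKM with pseudocounts of 0.1 and 1, each library left out, and the 3 libraries standing apart left out.

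Deviations of same-numbered libraries from their group means had r of 0.200, 0.368 and 0.451 between 1.5 h and control. Between 3 and 1.5 h r was 0.179, 0.166 and 0.224. The best match bore another number for 1.5 h replicate 1 in the first and 3 h replicate 2 in the second. The library standing apart was replicate 3 at both 1.5 and 3 h. Whether the numbers mark pairs is thus not settled, and the block is an alternative only. In the other comparisons at least 1 pair had r below 0.1, and between 6 and 3 h the values were -0.651, 0.599 and -0.657. The labels do not say what a number marks.

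The members, gene lists, tests and alternatives were chosen with earlier results of these data known. Results of 1 member are not reported here. Named genes were the others called against control and up to 3 uncalled members per family with the highest CPM. A fixed set of well-known members (6 of its genes were not analysed here) and up to 4 called genes per further list were added. Outside this rule and after their values were seen, the members called between times only and the genes under the filter were named. So were Mmp28, Adam1, Adam1a, Adamtsl4, Ctsc, Ctsk and Ctsz. Promoter sequences were matched by symbol (54 of 70). The SE includes counting error.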

Additional observations from a re-analysis of the deposited data

Results flagged for a closer look

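For 18 results the levels of treated libraries differed between times, by the test of the later against the earlier group in edgeR on all libraries. With the replicate number as a block, 9 of the 17 calls of 3 h against 1.5 h were kept, and those of Adam22, Ctsa, Ctsl, Mmp3, Mmp10, Mmp13, Mmp14 and Serpine2 were lost. The call of Mmp24 between 3 and 6 h, where the numbers did not pair the libraries, was lost with the block too (edgeR adjusted p = 0.0609). Each difference compares the later with the earlier treated group. No untreated libraries were taken at these times, so PT109B and time cannot be told apart. From 1.5 to 3 h, log2 differences were -1.49 for Adam19, -1.43 for Prss23, -1.22 for Adam22 and -1.09 for Adam12, all lower at 3 h. They were 0.46 for Mmp14, 0.65 for Serpinb6a, 0.75 for Adam23, 1.00 for Ctsa, 1.01 for Ctsh and 1.06 for Ctsl. Larger ones were 1.32 for Plaur, 1.36 for Mmp3, 1.43 for Adamtsl1, 1.48 for Serpine2 and 1.75 for Serpinb2. The largest were 3.04 for Mmp13 and 3.88 for Mmp10, which had 1, 0 and 2 reads counted at 1.5 h. From 3 to 6 h the difference was 1.27 for Mmp24. For Adamtsl1, an Adamts-like protein without a protease domain, the levels were 49.2, 50.5 and 30.6 CPM at 3 h, against 13.9, 10.6 and 24.1 CPM at 1.5 h, and the groups did not overlap.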

How the results depend on the processing

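Of 54 called values of single genes, 17 kept their call in every alternative, 37 lost it in at least 1, and none changed sign. In DESeq2 all 54 were kept. All 54 were also kept without the 3 libraries standing apart. Those libraries were picked from these data because they differed from their groups, so this is no independent check of the calls. Counts of members changed moved by over 1.5 times as follows. At 1.5 h against control, where 1 was called, 3 were called with only the 2 groups compared, 8 in DESeq2 and 51 without the 3 libraries. At 3 h against control (16) it was 47 without the 3 libraries. At 6 h against control (19) it was 29 in DESeq2 and 54 without the 3 libraries. At 3 h against 1.5 h (17) it was 9 with the replicate block, 1 with only the 2 groups compared, 29 in DESeq2 and 54 without the 3 libraries. At 6 h against 3 h (1) it was 0 with the replicate block and 0 with only the 2 groups compared (edgeR, with 4 and 9 at an unadjusted p below 0.05), 3 in DESeq2 and 28 without the 3 libraries. Leaving out 1 library gave 1 to 35, 5 to 23, 11 to 32, 1 to 40 and 0 to 4 members in these 5 comparisons. Shares of all genes called are not given for these fits, for DESeq2 or for only the 2 groups compared. Those counts therefore cannot be read as particular to the members. The numbers 1 to 3 did not pair the libraries in the comparisons of 3 and 6 h with control or of 6 with 3 h, and in all 5 comparisons together 39 of the 54 calls were kept with the block. The 1 call at 1.5 h was among those kept. The changes of Mmp10 rest on few reads (5, 1 and 2 counted in controls).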
